A study of Mus musculus and Acomys cahirinus with 16 samples.

Results

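The Hedgehog pathway is described here through 9 genes, taken by symbol: the ligands Shh and Ihh, the receptor Ptch1, the ligand-binding inhibitor Hhip, the signal transducer Smo, the inhibitor Sufu and the transcription factors Gli1, Gli2 and Gli3. Each of the 9 symbols occurred once among the 56980 genes of the mouse table and once among the 19818 genes of the spiny mouse table. After a filter on low counts 8 of them were tested in each species, and Ihh was not. The samples were 16 pieces of skin of 2 species, the laboratory mouse (Mus musculus) and the African spiny mouse (Acomys cahirinus). Each species gave 4 untreated and 4 DMBA/TPA-treated samples. DMBA/TPA is a protocol in which the mutagen dimethylbenzanthracene starts skin tumours and the phorbol ester TPA promotes them. The labels used here give no strain, genotype, age, sex, body site, dose or time after treatment, and they do not say whether the replicates were separate animals. The p-values below therefore measure the spread between these samples, part of which may be technical.

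Hedgehog ligands are secreted proteins that bind Patched receptors on neighbouring cells. Without ligand, Patched holds the membrane protein Smoothened (Smo) inactive, and Sufu keeps the Gli proteins from activating genes. Ligand binding releases Smo, Gli2 becomes an activator, and cells transcribe Gli1, Ptch1 and Hhip, the usual transcript readouts of the pathway. Ptch1 and Hhip in turn limit the signal. In skin, Shh is made by the epithelium of growing (anagen) hair follicles and is received by follicle epithelium and dermal papilla, and activating mutations of the pathway cause basal cell carcinoma.

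Total counts ran from 19608787 to 30198281 per mouse sample and from 21143918 to 30561256 per spiny mouse sample, with levels given as CPM, counts relative to a library total scaled with TMM factors. In this unit 3 counts corresponded to between 0.102 and 0.158 CPM. The deposited column of untreated mouse replicate 2 is the only untreated one whose name carries a further suffix, which no label explains, and this library stood apart in several results below. Markers that define skin were present in all groups and moved with treatment. The 6 keratinocyte genes summed to 6408 to 12769 CPM in untreated and 19783 to 28398 CPM in treated mouse skin and to 12783 to 16037 and 22872 to 29351 CPM in spiny mouse skin, with 4 of 6 called higher in each species. The 6 dermal fibroblast genes summed to 9662 to 16002 and 7302 to 10986 CPM in mouse (2 called lower) and to 4687 to 7894 and 2538 to 3603 CPM in spiny mouse (3 called lower, 1 higher). The 6 skeletal muscle genes summed to 9574 to 13926 CPM in untreated and 2231 to 3045 CPM in treated mouse skin, and to 9527 to 12135 and 3210 to 6613 CPM in spiny mouse skin. The part of these shifts in the Hedgehog results was not tested. Of all tested genes, 25.9% were called higher and 35.3% lower in mouse, and 28.2% and 26.9% in spiny mouse. In bulk tissue, fewer cells of a type cannot be told apart from less RNA per cell, and this holds for every level below.

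Promoter windows were matched for 7 of the 9 genes in RefSeq (not for Shh and Gli1), with all matched sequences placed on the mouse genome build GRCm39. Of the 250 bases placed for each, all 250 lay in annotated exons for Ptch1 and Gli3, and 6 to 96 of them for the other 5. The RefSeq start lay inside the gene as GENCODE annotates it, 7863 bases from its start for Ptch1, 1249 for Gli2 and 499 for Gli3. It lay within 89 bases of the start for the other 4. The windows of these 3 genes thus do not lie before the first start in GENCODE. The annotation used for counting differs for Gli2. There the gene starts at 118981349 on the minus strand, and its window, 118981350 to 118981599, lies directly before that start. They were searched for GACCACCCA, the sequence bound by Gli proteins, and for its 7-base core ACCACCC, both on either strand; every full site holds a core. The full site was in none of the 7 windows and in 83 of all 32851 RefSeq windows (0.253%). The core was in 1 of the 7, that of Gli2, and in 1514 of all windows (4.61%). Gli2 is shown as the only member with a core, in capitals as GGGTGGT on the printed strand, and Hhip as a pathway target that changed in spiny mouse and held none. Bases that the annotation places in exons were left off, which left 154 bases at chr1:118981446-118981599 (minus strand) for Gli2 and 195 bases at chr8:80784659-80784853 (minus strand) for Hhip.
Gli2: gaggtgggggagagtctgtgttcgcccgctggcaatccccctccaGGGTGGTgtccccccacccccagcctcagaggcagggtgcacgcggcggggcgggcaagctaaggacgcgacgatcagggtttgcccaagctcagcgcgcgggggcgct
Hhip: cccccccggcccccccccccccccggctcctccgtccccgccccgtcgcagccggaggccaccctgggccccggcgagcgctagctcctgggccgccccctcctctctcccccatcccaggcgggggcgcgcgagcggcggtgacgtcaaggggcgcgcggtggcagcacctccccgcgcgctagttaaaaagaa
A match of letters describes a sequence and is no evidence of binding, and a window without a match says nothing of Gli binding outside it.

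Most Hedgehog transcripts tested were higher in treated than in untreated mouse skin, and most were lower in treated than in untreated spiny mouse skin. In mouse, 6 of the 8 tested members rose, none fell, and 2 (Ptch1 and Hhip) did not pass the test (edgeR quasi-likelihood test, Benjamini-Hochberg adjusted p under 0.05 over 19740 genes). In spiny mouse 5 of 8 fell (Shh, Ptch1, Hhip, Gli1 and Gli2), none rose, and Smo, Sufu and Gli3 did not pass (14833 genes). These shares stand against a large background, because 61.2% of all tested mouse genes were called, 25.9% as higher and 35.3% as lower, and 55.1% of all tested spiny mouse genes, 28.2% as higher and 26.9% as lower. The median log2 fold change of the 8 members was 1.01 in mouse, beside -0.15 for all tested genes, and -0.89 in spiny mouse, beside -0.01. The mouse count depended on untreated replicate 2: without it all 8 members were called higher, and over the fits that each left out 1 replicate the count ran from 4 to 8. Without untreated replicate 2, 13944 of 20009 mouse genes were called, 48.1% of them higher. With all samples it was 12085 of 19740, 42.4% of them higher.

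**Figure D1:**
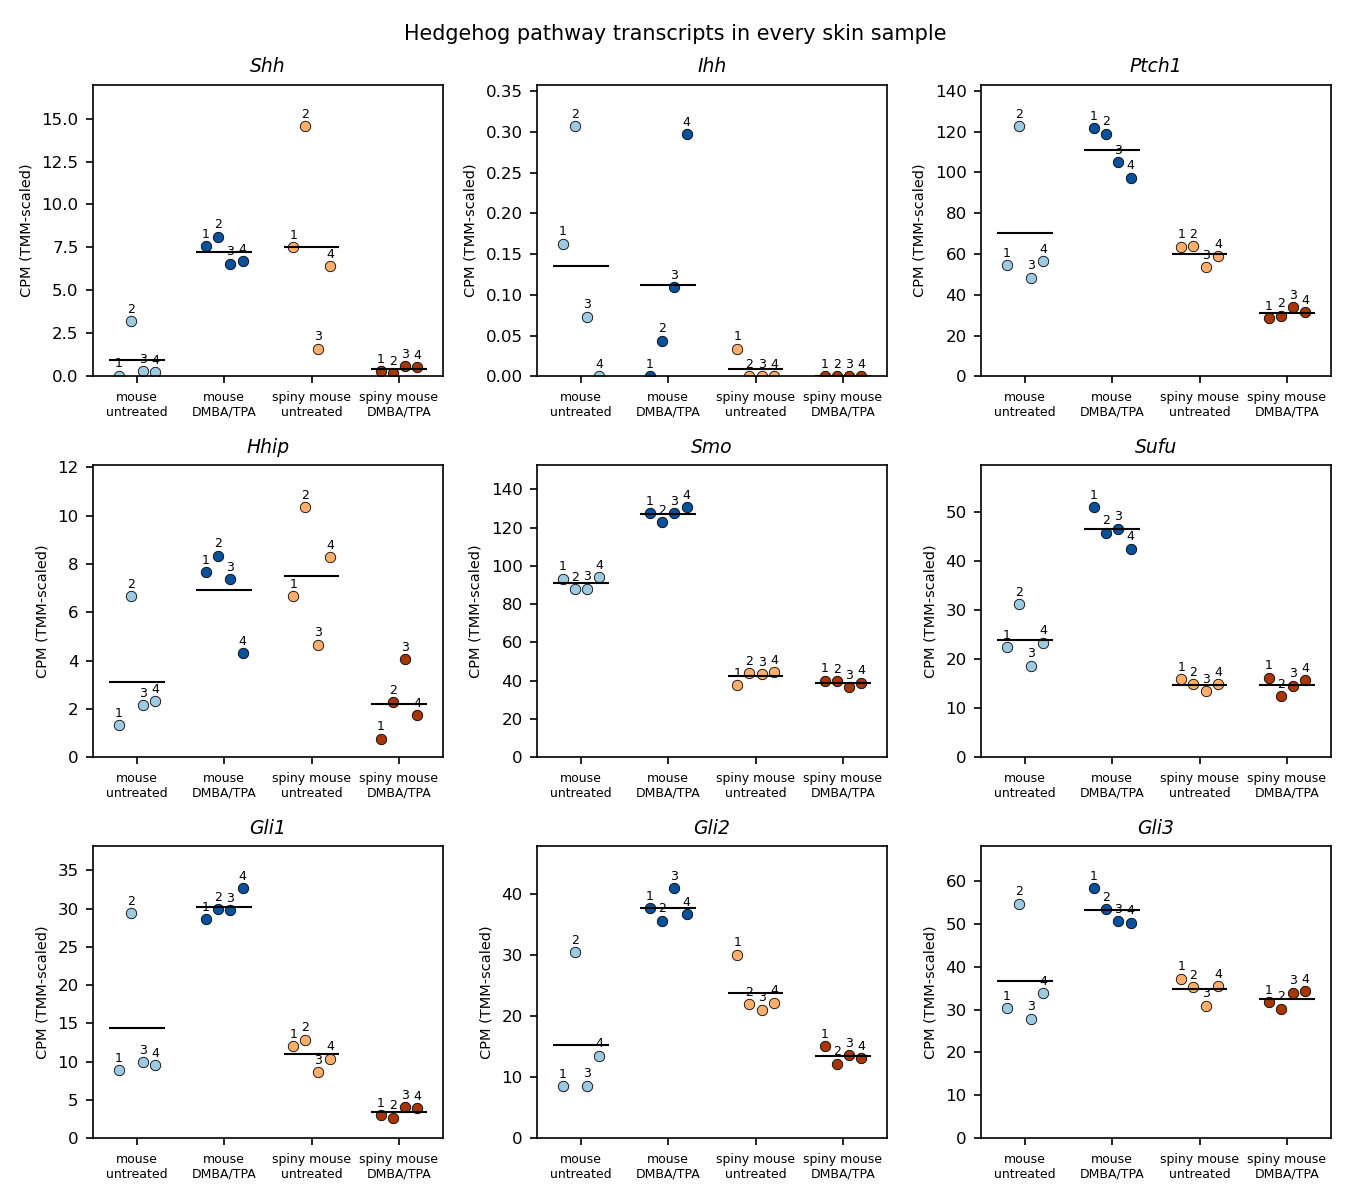
Level of each of the 9 genes (TMM-scaled CPM, linear axis from 0) in each of the 16 samples, numbered by replicate, with a bar at the group mean. Untreated mouse replicate 2 lies apart from the other untreated mouse samples for Shh, Ptch1 and Gli1, and the treated spiny mouse samples lie below all untreated ones for Shh, Ptch1, Hhip, Gli1 and Gli2.

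Shh (ENSMUSG00000002633, GRCm39 chromosome 5, 28661813 to 28672254, minus strand) is the Hedgehog ligand of the hair follicle. Its levels were 0.0407, 3.20, 0.293 and 0.228 CPM in untreated mouse replicates 1 to 4, from 1, 73, 8 and 5 counts, and 7.56, 8.13, 6.55 and 6.68 CPM in the treated ones. All treated samples were above all untreated ones, and untreated replicate 2 was far above the other 3. The log2 fold change was 2.95 (SE 0.859, edgeR adjusted p 0.0145), or 5.31 without untreated replicate 2 (edgeR adjusted p 1.40e-07). Exons of Shh share 446 bases with a gene on the opposite strand, and the counting command names no strand option, so these mouse counts are uncertain to that extent.

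In spiny mouse, Shh (scaffold_3, 109580524 to 109590775 of the AcoCah2 assembly) moved the other way. Untreated replicates 1 to 4 had 7.52, 14.6, 1.60 and 6.40 CPM, and treated ones 0.318, 0.179, 0.586 and 0.548 CPM, from 7, 5, 16 and 12 counts. The groups did not overlap, and the lowest untreated sample, replicate 3, was the nearest to the treated ones. Shh fell by 4.20 on the log2 scale (SE 0.673, edgeR adjusted p 0.000767), which is 18.3-fold lower. It was the largest fall among the 8 members.

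Ihh, the ligand best known from cartilage and bone, was near the floor of detection. Mouse counts were 4, 7, 2 and 0 in untreated and 0, 1, 3 and 8 in treated replicates 1 to 4. Spiny mouse skin gave 1 count in untreated replicate 1 and 0 in the other 7 samples, where a count of 0 allows up to 3 counts. No difference was detectable at this depth. The third ligand, Dhh, known from Schwann cells, had 1.10 to 2.23 CPM in untreated and 0.840 to 1.45 CPM in treated mouse skin and was not called (log2 fold change -0.64, SE 0.295, edgeR adjusted p 0.0853). It was called lower under 4 of 16 alternatives, among them the fit without untreated mouse replicate 2 (-0.72, edgeR adjusted p 0.0181). Of 5 Schwann cell markers, 4 fell in mouse and 3 in spiny mouse, beside 35.3% and 26.9% of all tested genes. The part of these markers in the Dhh level was not tested.

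Ptch1 (ENSMUSG00000021466, chromosome 13, 63656142 to 63721412, minus strand) encodes the main Hedgehog receptor and is itself a pathway target. It stood at 54.6, 123, 48.4 and 56.4 CPM in untreated and 122, 119, 105 and 97.5 CPM in treated mouse skin. Untreated replicate 2 was the highest of the 8 samples, while the other 3 untreated samples were below all treated ones. The log2 fold change of 0.65 (SE 0.278) did not pass (edgeR adjusted p 0.0661). Without untreated replicate 2 it was 1.15 (edgeR adjusted p 2.37e-06), and DESeq2 called the gene with that replicate kept (log2 fold change 0.74, adjusted p 0.0242).

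In spiny mouse the Ptch1 transcript had 63.7, 63.8, 53.4 and 59.0 CPM in untreated and 28.5, 29.7, 34.0 and 31.4 CPM in treated skin. The 2 groups were tight and far apart. Ptch1 fell by 0.95 on the log2 scale (SE 0.0849, edgeR adjusted p 3.91e-05), 1.94-fold lower.

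Hhip (ENSMUSG00000064325, chromosome 8, 80692480 to 80784635, minus strand), a membrane protein that binds and sequesters ligand, had 1.34, 6.67, 2.16 and 2.32 CPM in untreated and 7.67, 8.35, 7.38 and 4.31 CPM in treated mouse skin. Untreated replicate 2 lay above treated replicate 4, so the groups overlapped. The log2 fold change of 1.15 (SE 0.456) missed the threshold (edgeR adjusted p 0.0515). It was 1.92 without untreated replicate 2 (edgeR adjusted p 6.94e-05) and 1.35 without treated replicate 4 (edgeR adjusted p 0.0407), and DESeq2 called it with all samples (adjusted p 0.0142). A gene on the opposite strand shares 175 exon bases with mouse Hhip.

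Spiny mouse Hhip went from 6.67, 10.4, 4.66 and 8.27 CPM to 0.773, 2.29, 4.06 and 1.74 CPM. The groups did not overlap, although treated replicate 3 came close to untreated replicate 3. Hhip fell by 1.74 on the log2 scale (SE 0.426, edgeR adjusted p 0.00723), 3.33-fold lower.

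Smo (ENSMUSG00000001761, chromosome 6, 29735502 to 29761364, plus strand), the transducer that Patched restrains, varied least among replicates. It had 93.2, 87.8, 88.0 and 94.1 CPM in untreated and 127, 123, 128 and 131 CPM in treated mouse skin. Untreated replicate 2 did not stand apart for this gene. Smo rose by 0.49 on the log2 scale (SE 0.0835, edgeR adjusted p 0.00104). In spiny mouse it had 37.8, 44.1, 43.5 and 44.5 CPM in untreated and 40.0, 39.7, 36.7 and 38.9 CPM in treated skin, with overlapping groups and a log2 change of -0.13 (SE 0.0731, edgeR adjusted p 0.161). Without untreated replicate 1, the lowest untreated sample, the log2 fold change was -0.19 and passed (edgeR adjusted p 0.0467).

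Sufu (ENSMUSG00000025231, chromosome 19, 46385335 to 46477243, plus strand), which binds Gli proteins and holds them inactive, had 22.5, 31.2, 18.7 and 23.4 CPM in untreated and 51.0, 45.8, 46.6 and 42.6 CPM in treated mouse skin. All treated samples were above all untreated ones, and Sufu rose by 0.96 on the log2 scale (SE 0.151, edgeR adjusted p 0.000652). In spiny mouse the 2 groups lay on top of each other, at 15.9, 14.9, 13.5 and 14.9 CPM in untreated and 16.2, 12.4, 14.6 and 15.8 CPM in treated skin. The log2 fold change there was -0.0047 (SE 0.102, edgeR adjusted p 0.972). Mouse skin thus gained transcript of an inhibitor and of the transducer alike, and spiny mouse skin showed no called change in either.

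Gli1 (ENSMUSG00000025407, chromosome 10, 127165751 to 127177843, minus strand) is an activator whose transcription depends on Hedgehog signalling in most tissues. Its mouse levels were 8.92, 29.4, 9.96 and 9.57 CPM in untreated and 28.7, 29.9, 29.8 and 32.7 CPM in treated skin. Untreated replicate 2 lay inside the treated range, and the other 3 untreated samples were at about the same low level. Gli1 rose by 1.07 on the log2 scale (SE 0.364, edgeR adjusted p 0.0292), and by 1.76 without untreated replicate 2 (edgeR adjusted p 3.30e-08). The call was lost in 5 of 8 fits without 1 replicate (untreated replicates 1, 3 and 4 and treated replicates 2 and 4, edgeR adjusted p 0.0613, 0.0756, 0.0699, 0.0508 and 0.0552). Its exons share 327 bases with opposite-strand genes in mouse and 62 in spiny mouse.

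Spiny mouse Gli1 had 12.1, 12.9, 8.65 and 10.4 CPM in untreated and 3.05, 2.68, 4.03 and 3.98 CPM in treated skin. No sample of either group came near the other group. Gli1 fell by 1.68 on the log2 scale (SE 0.179, edgeR adjusted p 9.07e-05), 3.21-fold lower.

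Gli2 (ENSMUSG00000048402, chromosome 1, 118761862 to 118981349, minus strand), the main activator downstream of Smo, had 8.55, 30.5, 8.61 and 13.6 CPM in untreated and 37.7, 35.7, 41.0 and 36.8 CPM in treated mouse skin. The groups did not overlap, with untreated replicate 2 the nearest to the treated samples. Gli2 rose by 1.31 on the log2 scale (SE 0.374, edgeR adjusted p 0.0136), and by 1.98 without that replicate (edgeR adjusted p 8.69e-07). Spiny mouse levels were 30.1, 22.1, 21.1 and 22.3 CPM in untreated and 15.1, 12.2, 13.6 and 13.2 CPM in treated skin, again without overlap. There Gli2 fell by 0.82 on the log2 scale (SE 0.127, edgeR adjusted p 0.00063).

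Gli3 (ENSMUSG00000021318, chromosome 13, 15637820 to 15904611, plus strand), which acts mainly as the repressor of the family, had 30.3, 54.7, 27.9 and 33.8 CPM in untreated and 58.3, 53.4, 50.6 and 50.3 CPM in treated mouse skin. Untreated replicate 2 was above 3 of the 4 treated samples. Gli3 rose by 0.54 on the log2 scale (SE 0.198, edgeR adjusted p 0.0402), the weakest of the 6 mouse calls by its p-value. It was 0.88 without untreated replicate 2 (edgeR adjusted p 1.12e-05), and the call was lost in each of the 7 other fits that left out 1 mouse replicate (edgeR adjusted p up to 0.0913). In spiny mouse Gli3 had 37.2, 35.3, 30.9 and 35.4 CPM in untreated and 31.7, 30.2, 34.0 and 34.4 CPM in treated skin, overlapping groups with a log2 change of -0.09 (SE 0.08, edgeR adjusted p 0.351).

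**Figure D2:**
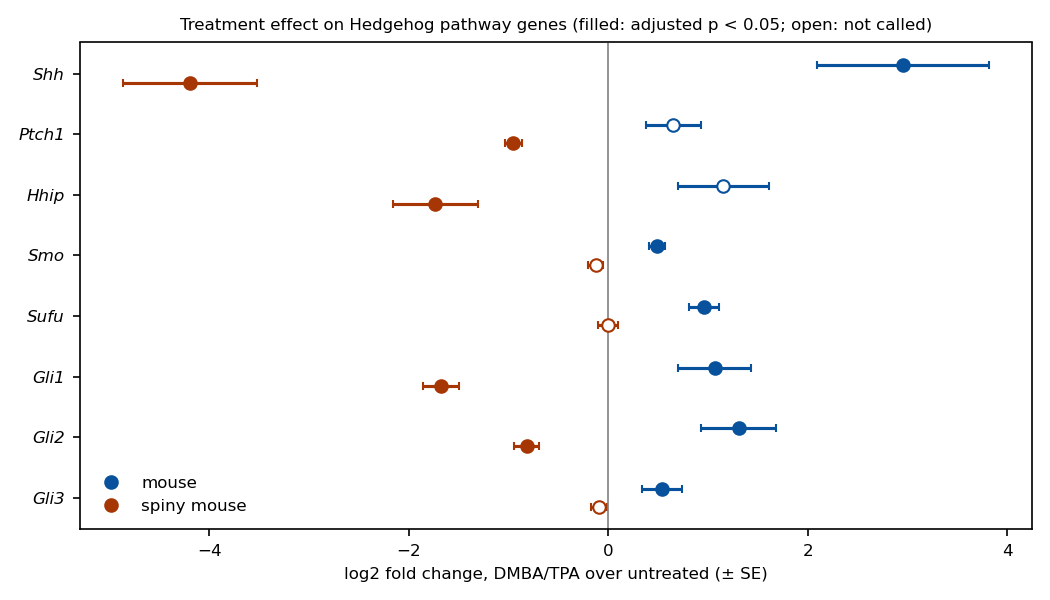
Log2 fold change of treated over untreated skin for the 8 tested genes in mouse and spiny mouse, with bars of 1 SE; filled points passed an adjusted p under 0.05. All 8 mouse points lie above 0, Shh being the highest at 2.95, and Shh is the lowest spiny mouse point at -4.20.

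Of the members tested, 4 had treated mouse samples wholly above untreated ones (Shh, Smo, Sufu and Gli2), where 26.6% of all tested genes did. The 5 that fell in spiny mouse did so without overlap, where 24.1% of all tested genes had treated samples wholly below. The mouse calls of Gli1 and Gli3 also depended on the scaling. With upper-quartile factors the log2 fold changes were 0.82 and 0.31 (edgeR adjusted p 0.102 and 0.262), and with library size alone 0.79 and 0.28 (edgeR adjusted p 0.108 and 0.301), since these scalings moved the median of all mouse genes by -0.20 and -0.24.

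The difference of the 2 treatment effects was tested over the 13656 symbols shared by both tables after filtering. The 2 tables were normalised separately, and each sample kept the effective library size of its own table. All 8 tested members had a lower log2 fold change in spiny mouse than in mouse by edgeR, where 46.1% of all symbols were called, 24.7% in this direction and 21.4% in the other. The median difference (spiny mouse minus mouse) was -1.87 for the members and -0.03 for all symbols. The differences are built on the same samples as the comparisons within each species.

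The ligand had the largest difference, with -7.16 for Shh (SE 1.15, edgeR adjusted p 0.000153). Among the transcript readouts of the pathway the difference was -2.75 for Gli1 (SE 0.446, edgeR adjusted p 0.000165) and -2.89 for Hhip (SE 0.666, edgeR adjusted p 0.00246). Ptch1 had -1.61 (SE 0.311, edgeR adjusted p 0.000658) and Gli2 -2.13 (SE 0.424, edgeR adjusted p 0.00082). Smaller differences were found for Sufu, at -0.96 (SE 0.185, edgeR adjusted p 0.000622), and Smo, at -0.61 (SE 0.0939, edgeR adjusted p 9.56e-05), both set mainly by the rise in mouse. The difference of Gli3 was -0.63 (SE 0.225, edgeR adjusted p 0.0321), or -0.97 without untreated mouse replicate 2 (edgeR adjusted p 1.20e-05). Its call was lost in 8 of 16 fits without 1 replicate (untreated mouse replicates 1, 3 and 4, untreated spiny mouse replicates 1, 2 and 4 and treated spiny mouse replicates 1 and 2, edgeR adjusted p 0.0507 to 0.0633).

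Levels were put in order within each group per kilobase of exon (RPKM, from the deposited gene lengths). These lengths differ between the 2 annotations, so the order in one species cannot be set against that in the other. Ptch1 has 14185 exon bases in mouse and 7559 in spiny mouse, Sufu 7691 and 2662, and Gli2 6869 and 13612. Smo was the highest member in all 4 groups, at 16.2 ± 0.590 RPKM in untreated and 22.6 ± 0.571 in treated mouse skin, and 10.5 ± 0.780 and 9.65 ± 0.376 in spiny mouse skin (SD, n = 4 each), and its replicates did not overlap those of the next gene. Ihh was the lowest in every group. In untreated mouse skin the order after Smo was Ptch1, Gli3, Sufu, Gli1 and Gli2, and these neighbours overlapped in their replicates. Hhip (0.344 ± 0.264 RPKM) and Shh (0.330 ± 0.531 RPKM) followed and could not be ordered, for their ranks changed places by TPM.

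In treated mouse skin Ptch1 (7.81 ± 0.815 RPKM) stood alone below Smo, Gli1, Sufu, Gli3 and Gli2 formed an overlapping group from 5.50 to 6.06 RPKM on average, and Shh followed at 2.54 ± 0.264 RPKM. In untreated spiny mouse skin Ptch1 (7.93 ± 0.649 RPKM) was the second, and Shh reached 2.61 ± 1.85 RPKM, overlapping both Gli1 and Gli2. Treated spiny mouse skin had another order than untreated spiny mouse skin. In the treated samples Sufu (5.55 ± 0.637 RPKM) stood above Ptch1 (4.09 ± 0.317 RPKM), with Gli1 at 0.952 ± 0.187 RPKM and Shh at 0.141 ± 0.0669 RPKM. Shh was below Hhip (0.245 ± 0.153 RPKM) on average, but their replicates overlapped. Shh per kilobase was thus at 0.330 and 0.141 RPKM on average in untreated mouse and treated spiny mouse skin and at 2.54 and 2.61 RPKM in treated mouse and untreated spiny mouse skin, levels that come from separately normalised tables and were not tested against each other.

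Growing hair follicles are the known source of Shh in skin. In mouse their markers were higher in treated skin. In spiny mouse part of them were called lower, and all overlapped between the groups. The 15 genes of hair matrix and shaft (hair keratins, Msx2, Lef1, Foxn1 and others) summed to 48.9, 2939, 75.0 and 51.5 CPM in untreated mouse replicates 1 to 4 and to 24367 to 26475 CPM in treated ones. All 15 had treated samples above untreated ones, and 13 were called higher, beside 26.6% and 25.9% of all tested genes. In spiny mouse, 14 of the 15 were in the table, none at 0 in either group, and they summed to 13450, 14679, 1414 and 4248 CPM in untreated and 325, 261, 3928 and 1588 CPM in treated replicates. There 7 of 14 were called lower, beside 26.9% of all tested genes, and all 14 overlapped between the groups. The species difference was called lower in spiny mouse for all 14 by edgeR, beside 24.7% of all symbols. Its median over the 14 was -6.87. The part of follicle content in the Hedgehog results was not tested.

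Some samples allow the 2 to be set side by side. Untreated mouse replicate 2 had a hair marker sum of 2939 CPM, below the treated samples and above the other untreated ones (48.9 to 75.0 CPM). Its Ptch1 (123 CPM) was above all treated samples, its Gli1 (29.4 CPM) inside their range and its Shh (3.20 CPM) below it. Treated spiny mouse replicate 3 had a hair marker sum of 3928 CPM, against 1414 CPM in untreated replicate 3. Its levels were 0.586 against 1.60 CPM for Shh, 4.03 against 8.65 CPM for Gli1 and 34.0 against 53.4 CPM for Ptch1. Treated spiny mouse replicate 4 likewise had a higher marker sum (1588 CPM) than untreated replicate 3 and lower levels of these 3 genes (0.548, 3.98 and 31.4 CPM). These are single samples, picked after their values were seen, and no test was made on them.

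**Figure D3:**
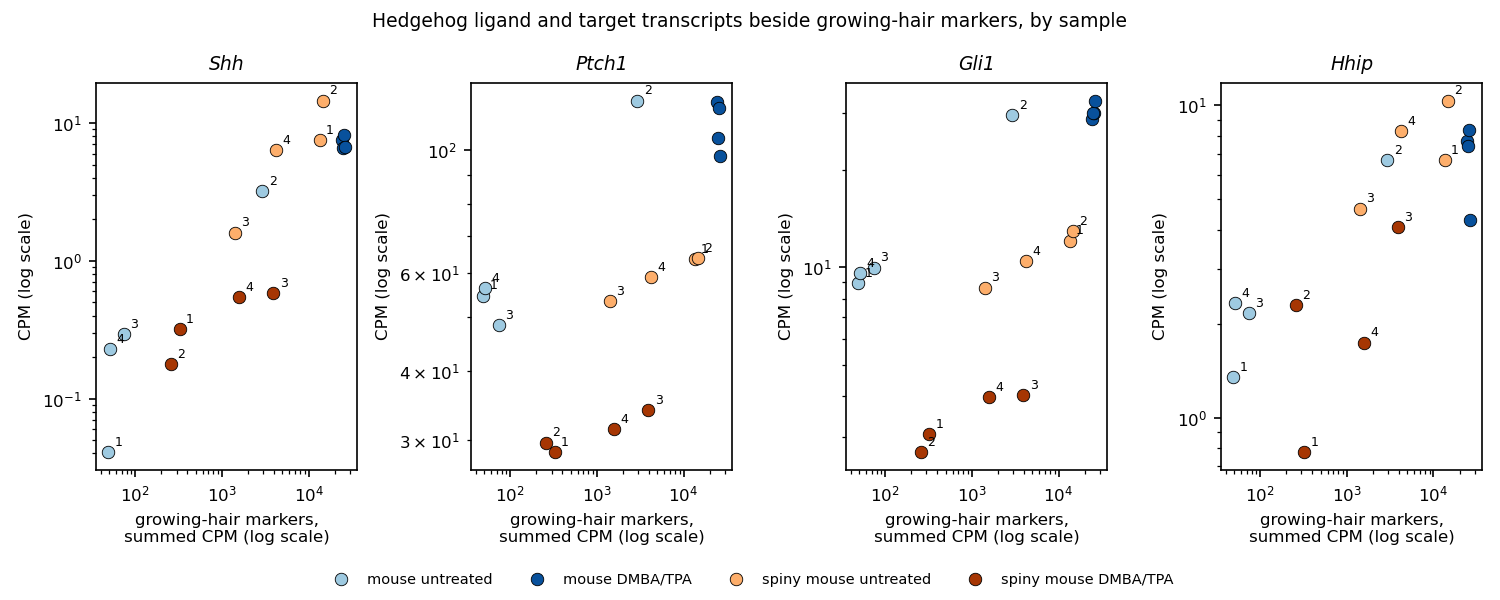
Shh, Ptch1, Gli1 and Hhip (CPM, log axis) against the summed level of 15 growing-hair markers (14 in spiny mouse; CPM, log axis), 1 point per sample, numbered by replicate except for treated mouse samples. Treated spiny mouse replicates 3 and 4 lie to the right of untreated replicate 3 and below it for all 4 genes.

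The dermal papilla is the follicle's signal-receiving mesenchyme. Of its 11 listed markers 4 rose and 4 fell in mouse, beside 25.9% and 35.3% of all tested genes. In spiny mouse 1 rose and 7 fell, beside 28.2% and 26.9%. Corin, a papilla protease, rose in mouse (log2 fold change 3.26, edgeR adjusted p 0.00135) and fell in spiny mouse (-1.92, edgeR adjusted p 0.0249). The 4 that fell in mouse were Rspo3, Prlr, Prom1 and Fgf7 (log2 fold changes -1.73, -1.39, -1.23 and -0.89). The summed list overlapped between the mouse groups (158 to 179 CPM in untreated, 154 to 168 CPM in treated skin) and was lower in spiny mouse (168 to 184 against 117 to 156 CPM). Of 7 follicle stem cell markers, 4 rose and 3 fell in mouse and 5 fell in spiny mouse, beside the same shares of all tested genes. Their median log2 fold change was 0.46 in mouse and -0.63 in spiny mouse. Their sum, in which abundant genes weigh most, was lower in treated skin of both species, without overlap. It ran from 1420 to 1796 CPM in untreated and 803 to 908 CPM in treated mouse skin. In spiny mouse it ran from 1062 to 1594 CPM in untreated and 508 to 611 CPM in treated skin.

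Other pathway genes were taken from 4 lists by role. In ligand production and release (7 genes), none rose and 2 fell in mouse, a share near the 35.3% of all tested genes called lower, and 5 fell in spiny mouse, beside 26.9%. Disp1, which releases ligand from the producing cell, fell in both species, from 15.7 ± 1.60 to 9.14 ± 0.990 CPM in mouse (SD, n = 4 each, edgeR adjusted p 0.000823) and from 30.3 ± 7.19 to 15.2 ± 1.58 CPM in spiny mouse (SD, n = 4 each, edgeR adjusted p 0.000743). Scube2, a secreted carrier of ligand, had 16.7 to 22.7 CPM in untreated and 3.18 to 5.75 CPM in treated spiny mouse skin, a fall of 2.24 on the log2 scale (edgeR adjusted p 2.81e-05). In mouse Scube2 fell by 0.43 (edgeR adjusted p 0.0314), a call lost under 10 of 16 alternatives, among them the fits without untreated or treated replicate 2, 3 or 4 (edgeR adjusted p up to 0.204). Without untreated mouse replicate 2, 3 genes of this list rose in mouse and 2 fell. Of all genes in that fit, 13944 of 20009 were called, 48.1% of them higher. Scube3 was then at 2.52 (edgeR adjusted p 9.88e-07), against 1.20 with all samples (edgeR adjusted p 0.115).

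In reception, 4 co-receptors of the ligand were tested. In mouse 2 rose and 2 fell, beside 25.9% and 35.3% of all tested genes. In spiny mouse all 4 fell, beside 26.9%. Cdon and Boc fell in both species, Cdon by 1.35 in mouse (edgeR adjusted p 6.18e-06) and 0.71 in spiny mouse (edgeR adjusted p 0.000306), and Boc by 0.56 (edgeR adjusted p 0.00104) and 0.53 (edgeR adjusted p 0.000767). Cdon was the 1 gene of the 4 lists whose fold change was higher in spiny mouse by test (difference 0.64, edgeR adjusted p 0.00067). Gas1 rose in mouse, from 73.5 to 127 CPM over untreated to 149 to 169 CPM over treated samples (log2 fold change 0.52, edgeR adjusted p 0.0229), and fell in spiny mouse (-0.58, edgeR adjusted p 0.000434). Its mouse call was lost under 3 of 16 alternatives (upper-quartile factors, library size alone and without treated replicate 3, edgeR adjusted p up to 0.107). Lrp2, a large endocytic receptor of the epithelium, was low in both species. It rose from 0.0456 to 0.658 CPM up to 0.683 to 1.19 CPM in mouse (log2 fold change 1.65, edgeR adjusted p 0.0274), and its spiny mouse level fell from 0.594 to 3.01 CPM down to 0.0455 to 0.220 CPM (-3.99, edgeR adjusted p 0.00149). The mouse call of Lrp2 was lost under 7 of 16 alternatives, among them the fits without untreated replicate 1 or 3 or treated replicate 2, 3 or 4 (edgeR adjusted p up to 0.0637).

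Ciliary transduction and control of Smo and Gli (17 genes) showed smaller changes. In mouse 5 rose, a share near the 25.9% of all tested genes called higher, and 1 fell, beside 35.3% called lower. In spiny mouse 2 rose and 9 fell, beside 28.2% of all tested genes called higher and 26.9% called lower. Without treated spiny mouse replicate 1, 2 rose and 6 fell, beside 7380 of 15027 genes called (52.5% of them higher). The gene that fell in mouse was Evc, a protein of the cilium base (-0.40, edgeR adjusted p 0.0228), and its call was lost under 10 of 16 alternatives (edgeR adjusted p up to 0.173). Gpr161, a ciliary receptor that keeps the pathway off, moved in opposite directions, from 19.2 to 24.0 up to 32.3 to 37.5 CPM in mouse (log2 fold change 0.72, edgeR adjusted p 0.000472) and from 23.8 to 33.8 down to 11.5 to 13.9 CPM in spiny mouse (-1.14, edgeR adjusted p 6.95e-05). Dyrk2, a kinase reported to act on Gli proteins, did likewise (0.64 in mouse, edgeR adjusted p 0.000591, and -0.35 in spiny mouse, edgeR adjusted p 0.00249). The kinase-related genes Prkar1a and Csnk1a1 rose in both species (log2 fold changes 0.57 and 0.67 in mouse, edgeR adjusted p 0.00265 and 0.00245, and 0.33 and 0.51 in spiny mouse, edgeR adjusted p 0.00275 and 0.000796). The intraflagellar transport genes Kif3a and Ift88, which build the cilium, were not called in either with all samples. Without untreated mouse replicate 2 Kif3a was called higher in mouse (0.32, edgeR adjusted p 0.0175, against 0.18 with all samples), and Ift88 was called lower in mouse with upper-quartile factors and library size alone (-0.45 and -0.49, edgeR adjusted p 0.0469 and 0.0319). Without untreated mouse replicate 2, 11 of the 17 rose in mouse and none fell, beside 13944 of 20009 genes called (48.1% of them higher).

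Of 13 reported Gli targets other than members, 9 were tested. In mouse 6 rose and 1 fell, beside 25.9% and 35.3% of all tested genes. In spiny mouse 2 rose and 5 fell, beside 28.2% and 26.9%. The proto-oncogene Mycn had 3.30, 13.3, 3.30 and 3.55 CPM in untreated and 29.2 to 33.8 CPM in treated mouse skin and rose by a log2 fold change of 2.45 (edgeR adjusted p 0.00143). In spiny mouse it had 22.6, 36.8, 5.04 and 16.7 CPM in untreated and 1.97 to 5.82 CPM in treated skin, so untreated replicate 3 lay among the treated samples, and it fell by 2.36 (edgeR adjusted p 0.0055). Foxe1, a transcription factor of the hair follicle, had 0.285, 6.36, 0.220 and 0.228 CPM in untreated and 35.3 to 45.7 CPM in treated mouse skin (log2 fold change 4.49, edgeR adjusted p 0.00286, or 7.39 without untreated replicate 2). Its fall in spiny mouse (-2.09, edgeR adjusted p 0.0298) was lost under 7 of 16 alternatives, among them the fits without untreated replicate 1 or 2 or treated replicate 1, 2 or 4 (edgeR adjusted p up to 0.12).

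Not every target followed the pathway readouts. The cyclin Ccnd1 rose in both species, by log2 fold changes of 0.84 in mouse (edgeR adjusted p 8.16e-05) and 1.16 in spiny mouse (edgeR adjusted p 0.000167). Sfrp1, a secreted Wnt inhibitor, also rose in both (1.33 and 0.99, edgeR adjusted p 3.49e-05 and 0.000101). The survival gene Bcl2 fell in both (-0.74 and -0.64, edgeR adjusted p 0.000351 and 0.000654). For these 3 genes the species difference was not called (0.32, -0.35 and 0.11, edgeR adjusted p 0.135, 0.0918 and 0.546). That of Sfrp1 was called under 5 of 23 alternatives, among them the fits without untreated mouse replicate 2 (-0.54, edgeR adjusted p 0.00409) and without treated mouse replicate 2 (-0.48, edgeR adjusted p 0.042), and that of Ccnd1 with upper-quartile factors and library size alone (0.49 and 0.54, edgeR adjusted p 0.0233 and 0.00957). Ccnd2 rose in mouse (0.39, edgeR adjusted p 0.0296) and fell in spiny mouse (-0.77, edgeR adjusted p 0.000351). Its mouse call was lost under 5 of 16 alternatives, among them the fits without untreated or treated replicate 1 (edgeR adjusted p up to 0.329). Sox9, a gene of follicle epithelium, rose in mouse (1.41, edgeR adjusted p 9.39e-05) and had a log2 fold change of -0.38 in spiny mouse (edgeR adjusted p 0.0825).

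**Figure D4:**
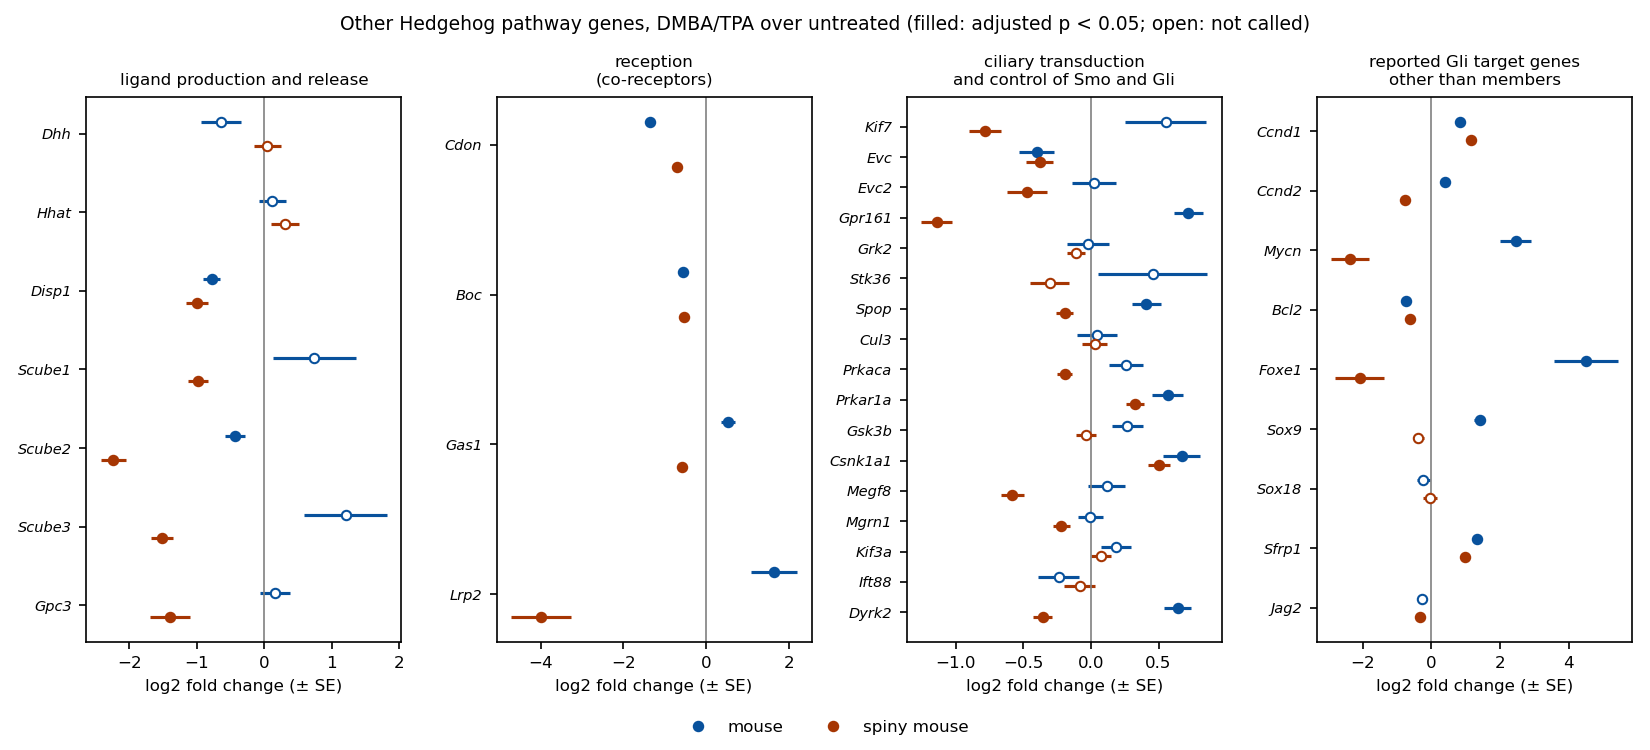
Log2 fold change of treated over untreated skin for the other pathway genes, in 4 lists by role, in mouse and spiny mouse, with bars of 1 SE; filled points passed an adjusted p under 0.05. Lrp2 is the lowest spiny mouse point (-3.99) and Foxe1 the highest mouse point (4.49).

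The species difference in these lists was called lower in spiny mouse for 4 of 7 genes of ligand production, 2 of 4 co-receptors, 6 of 17 of ciliary transduction and 4 of 9 targets, and higher for 1 gene, Cdon, beside 24.7% and 21.4% of all symbols. Scube1, among the 4 genes of ligand production, lost its call under 13 of 23 alternatives (edgeR adjusted p up to 0.0834). The count for ciliary transduction was 11 of 17 without untreated mouse replicate 2 and with the DESeq2 test, 10 with DESeq2 size factors or no filter, 9 without treated mouse replicate 2, and 4 with library size alone. The calls over all symbols moved too, from 6290 of 13656 (46.4% of them higher) in the main fit. They were 7711 of 13701 (39.9% higher) without untreated mouse replicate 2 and 6917 of 13656 (37.2%) with the DESeq2 test. DESeq2 size factors gave 6561 of 13656 (36.9%), no filter 6998 of 16499 (36.3%) and library size alone 6506 of 13656 (66.2%). Without treated mouse replicate 2 they were 6088 of 13743 (37.5%). The difference of Dhh was called higher under 3 of 23 alternatives, among them the fit without untreated mouse replicate 2 (0.77, edgeR adjusted p 0.0381).

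The genes with profiles most like that of Shh over the 16 samples, with each species centred on its own mean, were Msi1, Lef1, Msx2, Dlx1 and Tagln3. Their root mean square differences from Shh were 0.595, 0.616, 0.706, 0.766 and 0.778 in log2 CPM, where the median over 13655 genes was 2.22. Msi1 encodes an RNA-binding protein, and Lef1 and Msx2 are transcription factors of the hair matrix that also stand in the marker list above. Of the other members, Hhip (104th) and Gli1 (127th) ranked nearest to Shh.

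Gli1 was most like Ccser1, Wnk4, Nav2, Alx4 and Sox5, with differences of 0.246, 0.250, 0.251, 0.263 and 0.265 beside a median of 0.905. Alx4 is among the dermal papilla markers. Ptch1 ranked 18th for Gli1, Gli2 30th and Hhip 115th, and Gli3, Sufu and Smo ranked 638th, 744th and 1579th. Shh itself ranked 12947th, since the measure counts the size of a change and Shh spanned a far wider range. These likenesses describe samples that share species and treatment, and no test was made.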

How the data were processed

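Per the submitters' processing notes, reads were trimmed with Trim Galore, aligned with HISAT2 and counted with featureCounts. The deposited values are raw counts of read pairs per gene, 1 table per species. Per the file headers, featureCounts 2.0.3 was used with GRCm39 and Ensembl 108 for mouse and AcoCah2 for spiny mouse. It ran with no strand option, so the 2 strands of overlapping genes are mixed. Untreated columns carry another code than the labels and were assigned by species letter and number. One of them, that of mouse replicate 2, ends in an extra code, and whether it is a rerun or another sample is not known. The series design text describes irradiated fibroblasts, while title and labels describe treated skin, and the labels were followed.

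Mouse identifiers were given symbols from GENCODE (56236 matched, 744 did not). Treated was set over untreated within each species, for genes passing filterByExpr, with TMM scaling and the edgeR quasi-likelihood test (edgeR 4.0.16, R 4.3.3). The species difference was the species by treatment interaction over shared symbols. P-values were adjusted by Benjamini-Hochberg over all genes tested and called under 0.05. SE is the log2 fold change over the square root of F. The steps were tested on simulated counts with the same spread set for every gene and no outlying sample, so a library that stands apart was not covered. Alternatives were DESeq2 1.42.0, other scalings and filters, a replicate block, 1 fit of all 16 samples, and leaving out each replicate. Their use on genes other than the 9 members was chosen after seeing the data.

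The 9 members are named in every comparison, other pathway genes come from 4 lists by role, and the genes most like Shh and Gli1 are the 5 with the smallest root mean square difference. One gene of these lists is not reported here. Members and lists were chosen with earlier results of these data known. Floors of 3 counts cover counting error only, as reads carry no molecular identifiers. Promoter windows were RefSeq sequences of build GRCm38.p6, placed on GRCm39 by exact match.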

Additional observations from a re-analysis of the deposited data

Results flagged for a closer look

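For 5 of 32 groups of 4 samples, 1 sample lay far from the other 3, by Dixon's criterion, where chance alone gives about 1 in 20 groups. In untreated mouse skin this was replicate 2 in 3 genes, with 3.20 CPM for Shh, 122.7 CPM for Ptch1 and 29.4 CPM for Gli1. In untreated spiny mouse skin it was replicate 1 in the other 2, with 37.8 CPM for Smo, the lowest of its group, and 30.1 CPM for Gli2, the highest.

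The treatment effect differed between the species by the edgeR interaction test in all 8 tested members. The log2 differences, spiny mouse minus mouse, were -7.16 for Shh, -1.61 for Ptch1, -0.61 for Smo, -2.75 for Gli1, -2.13 for Gli2, -0.63 for Gli3, -2.89 for Hhip and -0.96 for Sufu.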

How the results depend on the processing

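No called fold change of a member reversed under any alternative run. The number of members called stayed within 1.5 times its value, at 4 to 8 of 8 in mouse, 5 to 6 in spiny mouse and 7 to 8 for the species difference over the fits without 1 replicate. All genes called ran from 11062 to 13944, 7258 to 8132 and 5746 to 7711 in these fits. Shh in mouse ran from 2.57 to 5.31 and in spiny mouse from -4.53 to -3.65, called by edgeR throughout. Upper-quartile factors and library size alone each left 4 mouse members called, and ended the Gli3 species difference (edgeR adjusted p 0.173 and 0.222). Higher genes made up 42.4% of mouse calls and 48.4%, 30.5% and 28.6% under DESeq2 size factors, upper-quartile factors and library size alone. For the species difference the share was 46.4%, then 36.9%, 61.2% and 66.2%, and 36.3% with no filter. Depth limits Ihh, at 0 to 8 counts.

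With the replicate number as a block, edgeR called 11246 genes in mouse, 7418 in spiny mouse and 5723 for the species difference. Members called were 8, 5 and 8, with Ptch1 and Hhip added in mouse (adjusted p 0.0224 and 0.021). Same-numbered samples correlated at -0.00799 to 0.0229 in mouse and -0.526 to -0.195 in spiny mouse in their deviations from group means, so the numbers were not taken to pair samples, and in neither species did a sample correlate best with its own number.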
